A study of Mus musculus with 18 samples.

Results

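The genes described here are 10 genes of iron withholding and transport, followed in the liver of mice given interleukin-1β (IL-1β), an inflammatory cytokine. They were chosen by symbol: Lcn2, Steap4, Hamp, Slc40a1, Tfrc, Tfr2, Trf, Fth1, Cp and Hfe2. All 10 were found among the 21018 genes listed in at least 1 of the 3 gene count tables, 9 under their own symbol and Tfr2 under its RefSeq synonym Trfr2, and all 10 had counts above 0 in every kit.

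Male C57/B6J mice, 12 weeks old, were injected with IL-1β (20 µg/kg) or with saline alone, and the liver was taken after 4 hours. Counts are given throughout in the order I9579, I9582, I9583 for the treated mice, then U9574, U9575, U9576 for those on saline. RNA of the same 6 mice went into each of 3 library kits, which gave 18 RNA-Seq libraries. Pico is a stranded kit for total RNA at very low input, V4 an unstranded kit that selects poly(A) RNA at very low input, and TruSeq a stranded poly(A) kit that used 200 ng. The labels name no transgene or engineered allele, and the tissue was whole liver, so a change is an average over all its cell types.

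Inflammation is known to move iron out of the circulation. Hepcidin, the peptide hormone encoded by Hamp, is made by hepatocytes and causes the iron exporter ferroportin (Slc40a1) to be degraded, so that iron is held inside macrophages and hepatocytes. Its gene is known to be switched on by cytokines through STAT3 and by bone morphogenetic proteins (BMP) through SMAD factors, with hemojuvelin (Hfe2) as a co-receptor of the latter. A second layer of control is the iron-responsive element, a short RNA hairpin that binds the iron regulatory proteins, blocks translation when it lies in a 5′UTR and protects the transcript when it lies in a 3′UTR.

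The promoters of Hamp, Steap4 and Lcn2, of the members that rose in all 3 kits, are shown because cytokine signals are known to reach genes through the motifs marked: Hamp (GRCm38.p6 chr7:30944030-30944279, minus strand), Steap4 (chr5:7960222-7960471, plus strand) and Lcn2 (chr2:32387740-32387989, minus strand). Each run is the 250 bases before the start of the gene, from RefSeq, and capitals mark matches to 4 motifs searched on both strands: a STAT site (TTCNNNGAA), a BMP response element (GGCGCC), a C/EBP site (TTGCNNAA or TTNNGCAA) and the NF-kappaB site.
Hamp: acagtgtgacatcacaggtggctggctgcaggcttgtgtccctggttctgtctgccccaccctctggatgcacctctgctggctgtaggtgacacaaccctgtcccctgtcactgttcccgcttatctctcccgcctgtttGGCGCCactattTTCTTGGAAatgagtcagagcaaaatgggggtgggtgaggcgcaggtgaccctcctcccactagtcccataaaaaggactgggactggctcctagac
Steap4: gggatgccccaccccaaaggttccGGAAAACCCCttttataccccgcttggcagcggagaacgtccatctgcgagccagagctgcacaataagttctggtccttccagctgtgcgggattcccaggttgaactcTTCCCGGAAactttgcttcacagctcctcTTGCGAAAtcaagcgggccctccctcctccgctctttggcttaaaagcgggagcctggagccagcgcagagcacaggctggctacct
Lcn2: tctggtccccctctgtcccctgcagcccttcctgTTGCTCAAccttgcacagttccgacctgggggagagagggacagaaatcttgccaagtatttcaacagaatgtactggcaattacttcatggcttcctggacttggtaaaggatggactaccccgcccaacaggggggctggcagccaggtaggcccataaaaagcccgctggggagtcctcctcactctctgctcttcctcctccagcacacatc

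The Hamp promoter held a STAT match from -97 to -89 and a BMP response element from -109 to -104, counted from the RefSeq start. The bases after that start were not found near the beginning of the GENCODE vM1 transcripts of Hamp, so its start may differ between the annotations and the window may be shifted. The Steap4 promoter held a STAT match from -116 to -108, a C/EBP match from -87 to -80 and an NF-kappaB match on the minus strand from -226 to -217, and the Lcn2 promoter held a C/EBP match from -216 to -209. Of all 32851 promoter windows of this length, 7.02% held the STAT motif, 9.59% the BMP element, 1.41% the NF-kappaB motif and 9.56% the C/EBP motif, and a match describes the letters only. The promoter of Hamp2, a near copy of Hamp, held the STAT match from -94 to -86 and no BMP element in this window. In windows of other members, Tfrc held 1 BMP element, Tfr2 1 NF-kappaB match, Fth1 2 C/EBP matches and Cp 1 C/EBP match. These genes had 2, 3, 2 and 2 windows searched, whereas the shares above are per single window. For Tfrc, Tfr2 and Fth1 the bases after the start were likewise not found near the beginning of the transcripts. Slc40a1, Trf and Hfe2 were not searched.

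Iron-responsive elements are shown because they tie 3 members and the ferritin light chain gene Ftl1 to the same regulator. A script searched the UTRs of the mm9 transcripts (GENCODE vM1) for an unpaired C, 5 paired bases and the loop CAGTGN, and capitals mark the loop.
Slc40a1, 5′UTR, chr1:45982311-45982337, minus strand: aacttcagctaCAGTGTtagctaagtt
Fth1, 5′UTR, chr19:10057223-10057249, plus strand: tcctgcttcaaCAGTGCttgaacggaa
Ftl1, 5′UTR, chr7:52715150-52715176, minus strand: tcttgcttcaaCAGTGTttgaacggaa
Tfrc, 3′UTR, chr16:32631306-32631332, plus strand: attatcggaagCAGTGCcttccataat
Tfrc, 3′UTR, chr16:32631685-32631711, plus strand: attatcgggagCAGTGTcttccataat
Tfrc, 3′UTR, chr16:32631750-32631776, plus strand: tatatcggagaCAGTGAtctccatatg
Tfrc, 3′UTR, chr16:32631797-32631823, plus strand: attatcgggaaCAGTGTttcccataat

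Such a hairpin was found in the 5′UTR of 33 of 19945 genes (0.165%) and in the 3′UTR of 125 of 20007 genes (0.625%). Of this form Tfrc carried 4, all in its 3′UTR, and Slc40a1 and Fth1 carried 1 each, in the 5′UTR. The search took only this form, so iron-responsive elements of another form would be missed. No match was found in the UTRs of the other members.

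Library totals ran from 4024632 to 4134070 counts for Pico, from 12013453 to 12352473 for V4 and from 12348864 to 12858237 for TruSeq. All 8 hepatocyte markers were above 0 in every kit. In TruSeq their summed level was lower after IL-1β without overlap, at 78815 to 85903 against 92590 to 108272 CPM (counts in 1000000). The sums overlapped in Pico (60836 to 67361 against 64189 to 74037 CPM) and V4 (57983 to 64969 against 55662 to 65112 CPM). At an adjusted p of at most 0.05 (limma-voom), 5, 2 and 3 of them were called lower in Pico, V4 and TruSeq. In each kit 2 were called higher, where 17.6%, 11.0% and 34.1% of all genes were called. Their part in the member results was not tested. Neutrophil, Kupffer cell, endothelial and erythroid markers are given beside the members they moved with. In V4 the saline library of U9576 stood apart for several genes. Among the members these were Fth1, Trf and Hfe2 (710 counts against 469 and 460 in the other saline libraries). Among other iron genes they included Ftl1 (65391 against 36434 and 42917), Glrx5 (4528 against 2257 and 2538) and Cebpa (1463 against 660 and 890). Calls that turn on this library are given with and without it. TruSeq was read on another sequencer and at another read length than Pico and V4, so kit and run cannot be told apart there.

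IL-1β raised 4 members in all 3 kits: Lcn2, Steap4, Hamp and Cp. It lowered Slc40a1 and Hfe2 in all 3 kits and Tfrc in Pico and TruSeq, while Trf rose in TruSeq only and Fth1 and Tfr2 were called in no kit. With a call at an adjusted p of at most 0.05 (limma-voom, adjusted over all genes tested), 7 of 10 members were called in Pico (4 higher and 3 lower), where 17.6% of 18108 genes were called, 6.78% higher and 10.8% lower. In V4, 6 of 10 were called (4 higher and 2 lower) against 11.0% of 18051 genes, 3.60% higher and 7.41% lower. In TruSeq, 8 of 10 were called (5 higher and 3 lower) against 34.1% of 19424 genes, 12.3% higher and 21.8% lower. These shares include genes with few counts, whereas no member had a mean under 10 counts. Among genes with at least 10 counts in 3 libraries a larger share was called, as given with the other iron genes below. The saline and IL-1β libraries did not overlap for 8, 7 and 8 members in Pico, V4 and TruSeq, against 31.2%, 27.6% and 44.9% of all genes tested. Over the 10 members the median size of the log2 fold change was 1.09 (Pico), 0.92 (V4) and 1.28 (TruSeq).

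**Figure D1:**
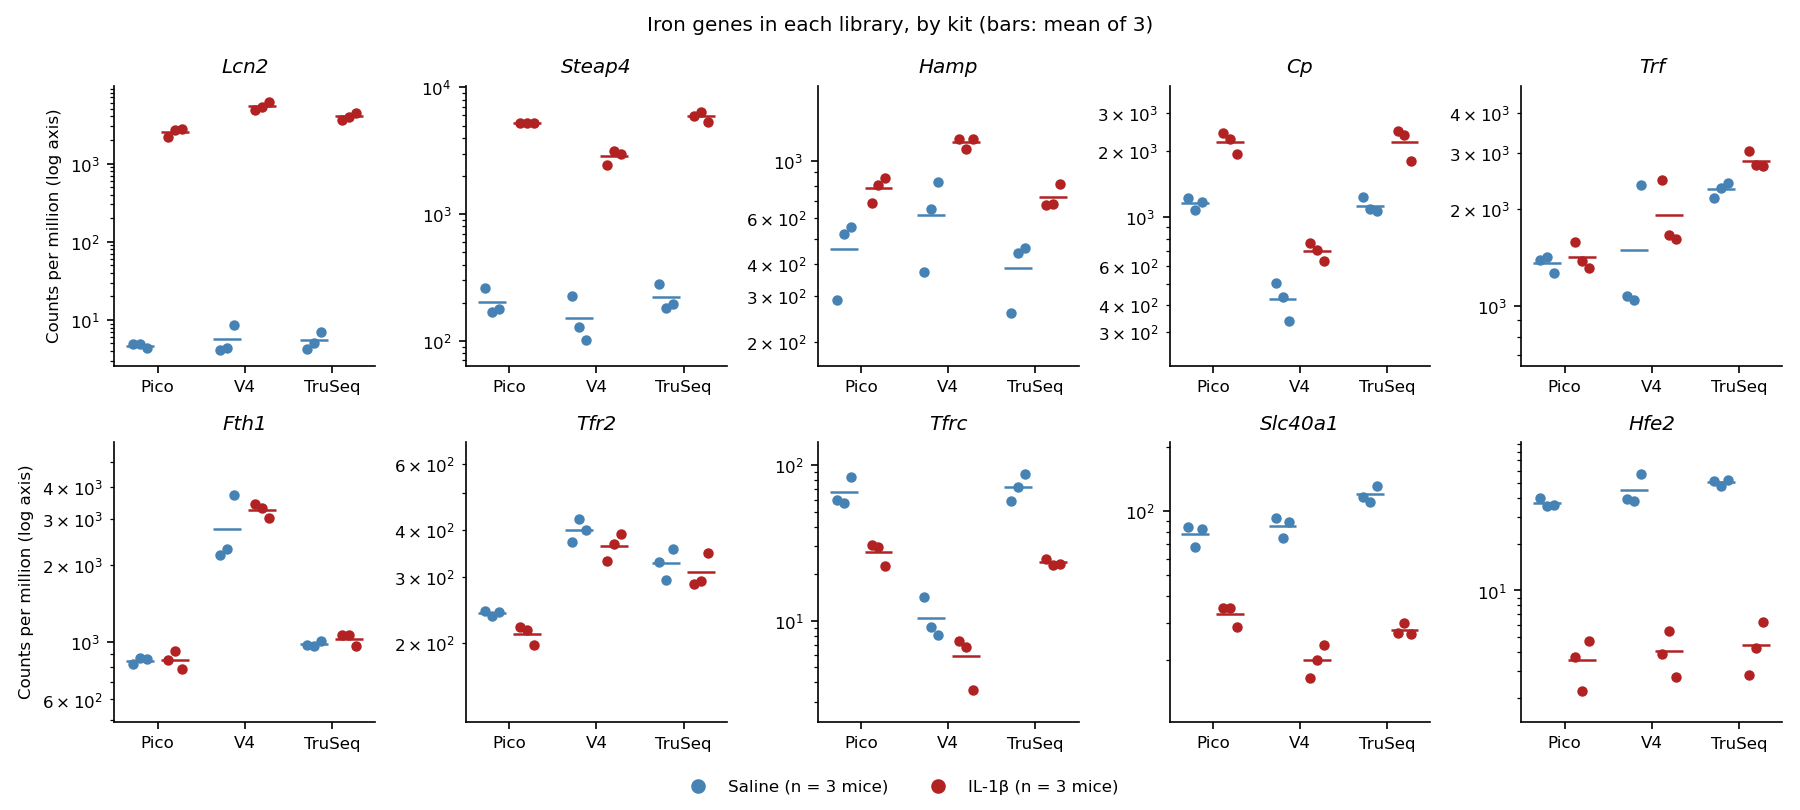
Level of each of the 10 iron genes in every library, in CPM on a log axis, by kit; points are mice (3 saline in blue, 3 IL-1β in red) and bars are means. Lcn2 and Steap4 sit far above saline and Hfe2 and Slc40a1 far below it in all 3 kits, while the groups overlap for Fth1.

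Lcn2 (lipocalin-2; mm9 chr2:32240153-32243317, minus strand) encodes a secreted protein that binds bacterial siderophores, the small molecules with which bacteria collect iron. It went from near the bottom of the counts to among the most abundant members. In TruSeq it had 44980, 48283 and 55197 counts in the IL-1β libraries and 54, 65 and 91 in the saline libraries. In V4 the counts were 59567, 63472 and 73806 against 50, 53 and 106, and in Pico 8873, 10806 and 11012 against 20, 20 and 18. Every treated library was far above every saline library of its kit. The mean CPM was 539-fold higher for Pico, 950-fold for V4 and 729-fold for TruSeq. The log2 fold change was 9.03 (SE 0.40, adjusted p = 1.62e-10, limma-voom, n = 3 per group) in Pico, 9.95 (SE 0.34, adjusted p = 9.87e-08) in V4 and 9.53 (SE 0.18, adjusted p = 4.60e-09) in TruSeq.

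Neutrophils store lipocalin-2 in their granules, and neutrophil markers moved with Lcn2. Their summed level in TruSeq was 45.5 to 89.2 CPM after IL-1β and 3.36 to 6.32 CPM after saline. In each kit 6 of 10 markers were higher without overlap. Of all genes, 31.2% (Pico), 27.6% (V4) and 44.9% (TruSeq) did not overlap in either direction. The sums were 38.6 to 48.9 against 0.971 to 5.14 CPM in Pico and 42.6 to 80.5 against 2.15 to 5.41 CPM in V4. The tables list only genes with a count in some library of the kit. Of the defining markers, Mpo was not listed in any table, Ly6g was not listed for Pico and V4, and Camp and Elane were not listed for Pico. Lcn2 itself had a mean of 2535 CPM (Pico), 5426 CPM (V4) and 3993 CPM (TruSeq) after IL-1β. Levels of unlike genes do not show how much Lcn2 came from neutrophils. The part of the neutrophil signal in the result was not tested.

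Steap4 (chr5:7960472-7982213, plus strand) encodes a metalloreductase, which reduces ferric iron and copper before uptake. In Pico it had 21257, 21125 and 21065 counts after IL-1β and 1064, 693 and 737 after saline. The V4 libraries gave 29735, 38018 and 35839 against 2721, 1561 and 1258, and the TruSeq libraries 73982, 79138 and 66490 against 3572, 2331 and 2511. The treated libraries lay close together, and U9574 was the highest saline library in all 3 kits. The rise was 25.9-fold in Pico (log2 fold change 4.72, SE 0.11, adjusted p = 6.59e-14), 18.7-fold in V4 (4.30, SE 0.23, adjusted p = 1.83e-06) and 26.9-fold in TruSeq (4.77, SE 0.15, adjusted p = 1.57e-07) by limma-voom.

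**Figure D2:**
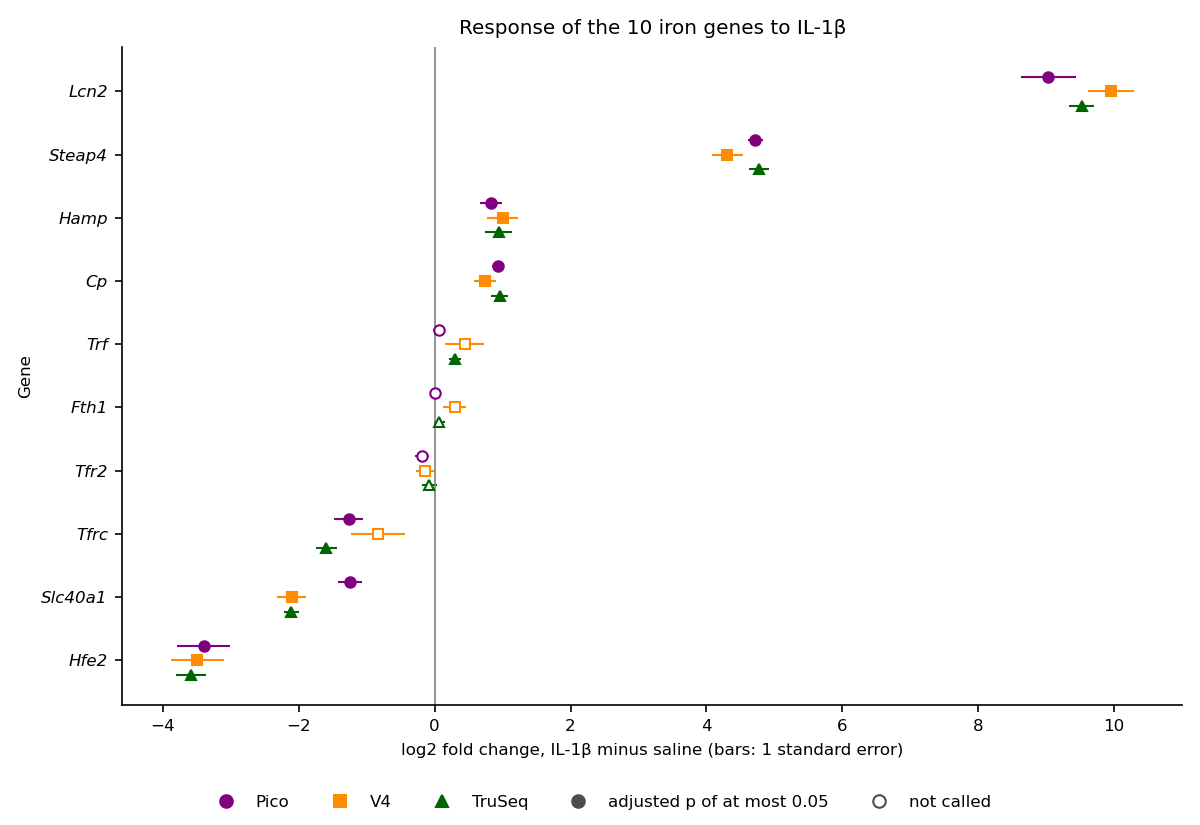
Response of the 10 members as log2 fold change of IL-1β over saline, with 1 standard error on each side, by kit; filled symbols mark an adjusted p of at most 0.05. Values run from 9.95 for Lcn2 in V4 to -3.58 for Hfe2 in TruSeq, and the Slc40a1 value in Pico (-1.25) lies apart from those in V4 (-2.10) and TruSeq (-2.11).

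Hamp (chr7:31727390-31729036, minus strand), the hepcidin gene, rose in each kit. In TruSeq the IL-1β libraries had 8369, 8377 and 10057 counts and the saline libraries 3272, 5648 and 5894. In V4 they had 14727, 13340 and 14630 against 4478, 7851 and 10249, and in Pico 2766, 3235 and 3456 against 1180, 2148 and 2294. All treated libraries were above all saline libraries of the same kit, and the saline libraries were spread more widely than the treated ones. The fold of the mean CPM was 1.72 in Pico (log2 fold change 0.83, SE 0.17, adjusted p = 0.0023), 1.91 in V4 (1.004, SE 0.23, adjusted p = 0.0174) and 1.87 in TruSeq (0.94, SE 0.20, adjusted p = 0.00475) by limma-voom. With TMM scaling the log2 fold changes were 0.96, 1.17 and 1.10.

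The spread in saline followed the mouse. U9576 was the highest and U9574 the lowest saline library for Hamp in all 3 kits, and their CPM differed 1.92-fold (Pico), 2.23-fold (V4) and 1.77-fold (TruSeq). The kits share the RNA of each mouse, so the repeated order is not 3 independent observations. The Hamp call was lost in Pico without I9582 or I9583 (adjusted p = 0.0811 and 0.0602) and in V4 without I9579, I9582, I9583 or U9575 (adjusted p = 0.0607 to 0.0833). Over the 12 alternatives the limma-voom, edgeR or DESeq2 adjusted p ranged from 2.2e-12 to 0.108 in Pico and from 0.00016 to 0.0833 in V4, and in TruSeq all 12 kept the call.

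**Figure D3:**
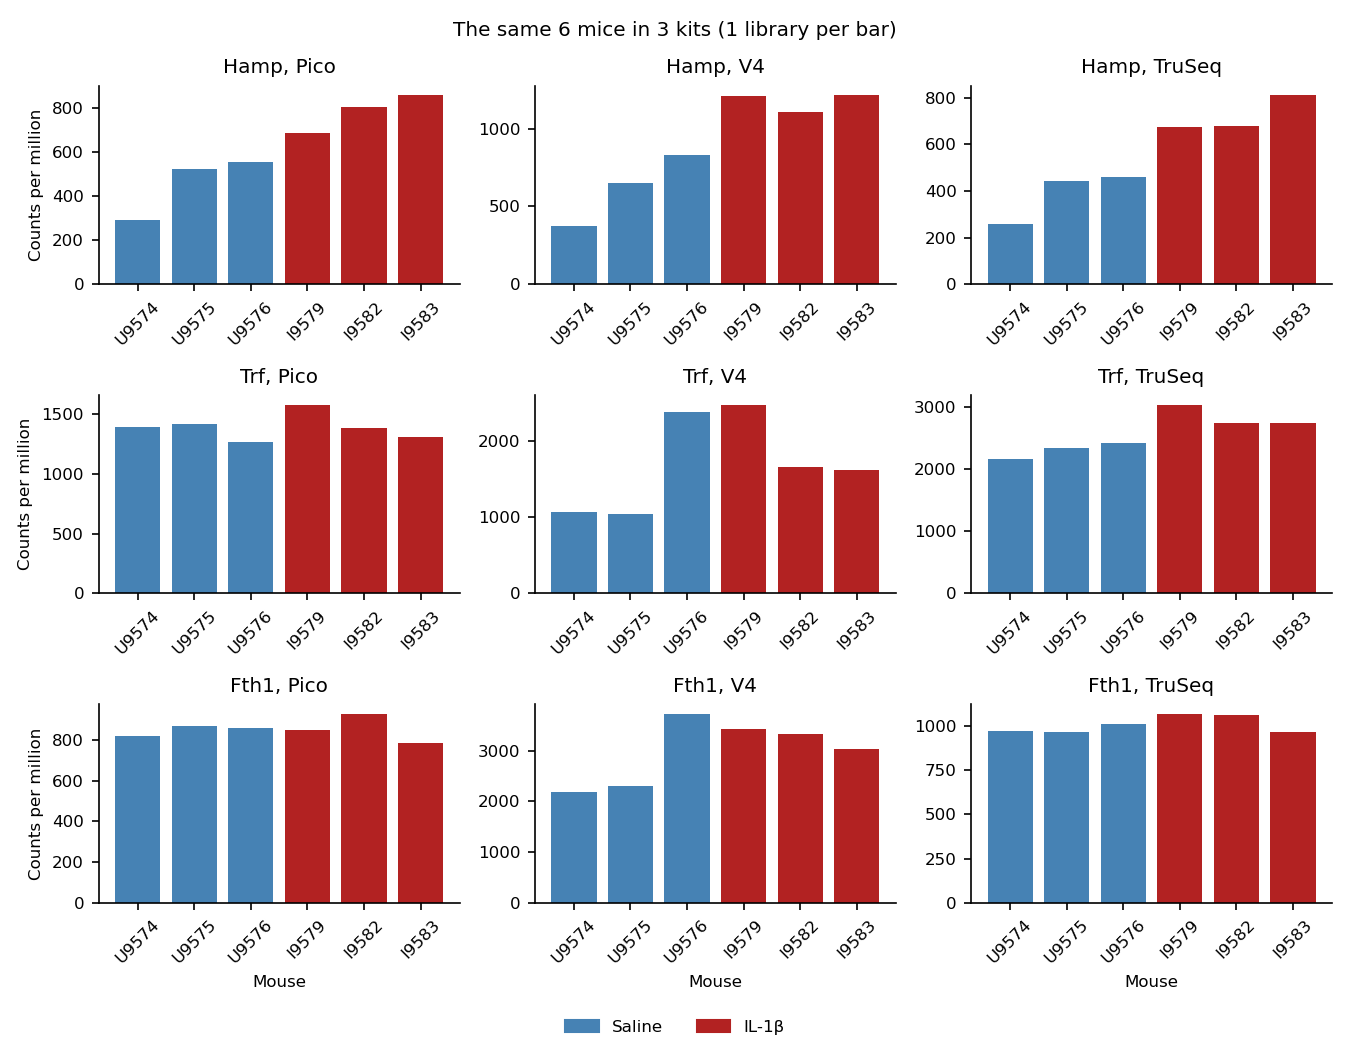
Hamp, Trf and Fth1 in each of the 6 mice (saline in blue, IL-1β in red), in CPM from 0, by kit, with 1 library per bar. U9574 is the lowest for Hamp in each kit, and in V4 the saline library of U9576 is the highest of all 6 for Fth1 (3729) and close to the highest for Trf (2375).

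Hamp2 (chr7:31707391-31709200, minus strand) lies beside Hamp and encodes a second hepcidin. Its transcript was 94.4% identical to that of Hamp over 392 aligned bases, with a longest identical run of 87 bases, so reads could be split between the genes and the counts of Hamp2 are uncertain. Hamp2 had 90, 51 and 67 counts after IL-1β and 31, 139 and 139 after saline in TruSeq, and the groups overlapped. It was called in no kit, with log2 fold changes of -0.24, -0.41 and -0.28 in Pico, V4 and TruSeq and adjusted p-values of 0.744, 0.691 and 0.705 (limma-voom). Without U9574 the TruSeq value was -0.99 (adjusted p = 0.0236), which would be called. U9574 was the lowest saline library for Hamp2 too.

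Hfe2 (chr3:96329108-96333139, plus strand), which encodes the BMP co-receptor hemojuvelin, fell more than any other member. In Pico it had 15, 9 and 19 counts after IL-1β and 164, 146 and 148 after saline. The V4 counts were 47, 66 and 33 against 469, 460 and 710, and the TruSeq counts 35, 52 and 77 against 653, 611 and 676. The treated libraries lay about an order of magnitude below the saline libraries, with no overlap. The mean CPM was 10.5-fold higher in saline in Pico (log2 fold change -3.40, SE 0.39, adjusted p = 1.11e-05), 11.1-fold in V4 (-3.50, SE 0.39, adjusted p = 0.000353) and 11.5-fold in TruSeq (-3.58, SE 0.22, adjusted p = 6.11e-06) by limma-voom. Hfe2 and Hamp thus moved in opposite directions in every kit.

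Slc40a1 (chr1:45964915-45982439, minus strand) encodes ferroportin, the only known cellular exporter of iron. It had 334, 371 and 329 counts after IL-1β and 1485, 1424 and 1697 after saline in TruSeq. V4 gave 200, 242 and 285 against 1123, 903 and 1101, and Pico 142, 141 and 116 against 346, 280 and 343. No treated library reached a saline library in any kit. The log2 fold change was -2.11 in TruSeq (SE 0.11, adjusted p = 2.44e-06, limma-voom), -2.10 in V4 (SE 0.22, adjusted p = 0.000206) and -1.25 in Pico (SE 0.18, adjusted p = 9.18e-05), and the saline mean CPM was 4.32, 4.28 and 2.38 times the IL-1β mean.

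Kupffer cells, the macrophages of the liver, are rich in ferroportin, and the sum of their markers moved with Slc40a1, though not every marker did. The sum of 8 Kupffer cell and macrophage markers was 67.3 to 97.7 CPM after IL-1β and 136 to 229 CPM after saline in TruSeq, 53.0 to 83.2 against 102 to 200 CPM in V4 and 103 to 140 against 187 to 246 CPM in Pico. All 8 were above 0 in each kit, and 5, 4 and 5 of them were lower without overlap in Pico, V4 and TruSeq. Of all genes, 31.2%, 27.6% and 44.9% did not overlap in either direction. At an adjusted p of at most 0.05 (limma-voom), 4, 2 and 5 of the 8 were called lower, beside 17.6%, 11.0% and 34.1% of all genes called. Marco was higher without overlap in TruSeq (log2 fold change 1.30, adjusted p = 0.0073, limma-voom). It had 0.37 in Pico and 1.33 in V4, not called. Emr1 had 0.27 in Pico, not called. Cd68 overlapped and was not called in any kit (-0.30, 0.11 and -0.16 in Pico, V4 and TruSeq). The sum of 8 markers of sinusoidal endothelium was also lower after IL-1β, at 104 to 127 against 202 to 232 CPM in TruSeq, 58.4 to 75.6 against 108 to 153 CPM in V4 and 260 to 321 against 381 to 417 CPM in Pico. Of these 8 markers, 4, 4 and 6 were lower without overlap in Pico, V4 and TruSeq, beside the same shares of all genes. By limma-voom 4, 3 and 6 of them were called lower. Lyve1 and Cdh5 were higher without overlap in each kit. Lyve1 was called in Pico and TruSeq but not in V4 (adjusted p = 0.102, limma-voom). Cdh5 was called in Pico but not in V4 (adjusted p = 0.390) or TruSeq (adjusted p = 0.121). In bulk liver, fewer cells of a type and less RNA per cell cannot be told apart, and the part of these markers in the Slc40a1 result was not tested.

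Tfrc (chr16:32609006-32632880, plus strand) encodes transferrin receptor 1, through which cells take up transferrin-bound iron. In TruSeq it had 311, 283 and 288 counts after IL-1β and 739, 923 and 1126 after saline, and in Pico 123, 120 and 90 against 244, 235 and 344. The V4 counts were 90, 82 and 43 against 171, 110 and 99. The groups did not overlap in any kit. Tfrc fell in TruSeq (log2 fold change -1.60, SE 0.15, adjusted p = 6.04e-05) and in Pico (-1.27, SE 0.21, adjusted p = 0.000394), and its value in V4 was -0.84 (SE 0.40, adjusted p = 0.218, limma-voom), which was not called. The sum of 7 erythroid markers, whose cells use Tfrc heavily, was 141 to 213 CPM after IL-1β and 206 to 230 CPM after saline in TruSeq, 128 to 174 against 185 to 192 CPM in Pico and 350.0 to 858 against 605 to 986 CPM in V4. None of those listed was free of overlap in any kit, Epb4.2 was not listed in any table and Slc4a1 not for V4, and their part in the Tfrc result was not tested.

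Tfr2 (chr5:138011079-138028709, plus strand) encodes transferrin receptor 2, which serves hepatocytes as a sensor of transferrin iron. It had 894, 873 and 797 counts after IL-1β and 995, 970 and 1001 after saline in Pico, where the groups did not overlap. In TruSeq it had 3574, 3615 and 4313 against 4157, 3770 and 4579, and in V4 4013, 4425 and 4714 against 4455, 5170 and 4933, with overlap in both. Tfr2 was called in no kit. Its log2 fold changes were -0.18 (SE 0.10, adjusted p = 0.262) in Pico, -0.14 (SE 0.13, adjusted p = 0.581) in V4 and -0.08 (SE 0.11, adjusted p = 0.609) in TruSeq, and with TMM scaling the V4 and TruSeq values became 0.03 and 0.08.

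Cp (chr3:19857054-19909145, plus strand) encodes ceruloplasmin, the plasma ferroxidase that oxidises iron for loading onto transferrin. In Pico it had 9840, 9119 and 7838 counts after IL-1β and 5014, 4472 and 4840 after saline. V4 gave 9297, 8553 and 7635 against 6028, 5230 and 4177, and TruSeq 30812, 29199 and 22406 against 15621, 13989 and 13732. All treated libraries were above all saline libraries, and I9579 was the highest and I9583 the lowest treated library in each kit. Cp rose 1.90-fold in Pico (log2 fold change 0.93, SE 0.08, adjusted p = 1.12e-06), 1.66-fold in V4 (0.74, SE 0.16, adjusted p = 0.0135) and 1.96-fold in TruSeq (0.96, SE 0.13, adjusted p = 0.000378) by limma-voom. The V4 call was lost without I9579, I9582 or U9575 (adjusted p = 0.0598 to 0.0671, against 0.0001 to 0.0671 over all 12 alternatives). Exons of Hps3 on the other strand overlap those of Cp by 108 bases, and V4, which counts both strands, gave Hps3 a mean of 40.7 counts.

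Trf (chr9:103106331-103132774, minus strand) encodes transferrin, the carrier of iron in plasma. In TruSeq it had 37726, 33873 and 33969 counts after IL-1β and 27404, 29929 and 31156 after saline, with no overlap, and it was called higher (log2 fold change 0.30, SE 0.09, adjusted p = 0.0223, limma-voom). That call was lost without I9579, U9574 or U9575 (adjusted p = 0.0531 to 0.0759) and in a single fit of all 18 libraries (adjusted p = 0.317), within a range of 0.00022 to 0.317 over 12 alternatives. With TMM scaling the limma-voom values were 0.46 in TruSeq (adjusted p = 0.0030), 0.19 in Pico (0.107) and 0.60 in V4 (0.192). The Pico counts of 6396, 5559 and 5281 against 5688, 5855 and 5250 overlapped, and the log2 fold change there was 0.06 (SE 0.08, adjusted p = 0.675). In V4 the counts were 30099, 20018 and 19429 against 12859, 12573 and 29342. The saline library of U9576 held more than double the counts of the other saline libraries of that kit, and the value of 0.44 (SE 0.28, adjusted p = 0.382) became 0.83 (adjusted p = 0.0378) without it. A second gene model of Trf shares 2108 exonic bases with it and had a mean of at most 0.333 counts.

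Fth1 (chr19:10057193-10059582, plus strand) encodes the heavy chain of ferritin, the protein shell that stores iron in cells. In Pico it had 3446, 3739 and 3174 counts after IL-1β and 3349, 3579 and 3548 after saline, and in TruSeq 13299, 13144 and 12012 against 12330, 12393 and 13056. The groups overlapped in both kits, with log2 fold changes of 0.01 (SE 0.08, adjusted p = 0.965) and 0.07 (SE 0.08, adjusted p = 0.576) by limma-voom. In V4 the counts were 41806, 40127 and 36536 against 26308, 27827 and 46062, and U9576 alone was above the treated libraries. The V4 value was 0.29 (SE 0.18, adjusted p = 0.350), and without U9576 it was 0.54 (adjusted p = 0.0117), which would be called. Without U9576, 8 of 10 members were called in V4 in place of 6. With TMM scaling and all mice, Fth1 had 0.14 (adjusted p = 0.277) in Pico, 0.46 (0.104) in V4 and 0.23 (0.0576) in TruSeq by limma-voom. Among the carriers of the hairpins shown above, Tfrc and Slc40a1 thus changed at the transcript level. With all mice Fth1 did not pass the test under either scaling, and in TruSeq with TMM it came close. These libraries do not measure translation.

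The fitted response of each member had the same sign in all 3 kits, although Tfr2 turned positive in V4 and TruSeq with TMM scaling. The tables were normalized separately, so kits were compared only through the difference of their responses. In a fit with an interaction of kit and treatment, 0 of 10 members differed between Pico and TruSeq, V4 and TruSeq or Pico and V4, where 0.00% of 17207, 17147 and 16395 genes were called and 5.49%, 6.36% and 5.49% had an unadjusted p under 0.05. At that unadjusted level, 1, 0 and 1 members were counted in the 3 pairs by limma-voom, and edgeR and DESeq2 counted 1 and 1, 0 and 1, and 2 and 2. The mouse pairs the libraries between kits, and with it as a block limma-voom counted 2, 1 and 2. Without the block, leaving out a mouse gave 2 for Pico and TruSeq without I9579 or U9576, 1 for V4 and TruSeq without I9583 or U9574 and 2 without U9576, and for Pico and V4 0 without I9579 and 3 without U9576. The member counted by limma-voom with all mice and no block was Slc40a1. Its response was smaller by 0.86 (SE 0.20) on the log2 scale in Pico than in TruSeq (adjusted p = 0.507 and unadjusted p = 0.000442, limma-voom) and smaller by 0.86 (SE 0.28) in Pico than in V4 (adjusted p = 0.689, unadjusted p = 0.00767). The fall of Slc40a1 itself was called in every kit, and the adjusted p of the difference between Pico and TruSeq ranged from 0.0670 to 0.996 over 11 alternatives.

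The order of the transcripts was read within a kit, as mean CPM per kb of exon. The length was that of all annotated exons of a gene merged, such as 392 bases for Hamp, 2302 for Lcn2 and 9566 for Cp. It can exceed the length of the transcript present, so ranks and overlaps between genes depend on the annotation. In saline livers of TruSeq, Fth1 (1139), Hamp (985) and Trf (698) stood at the top, and their ranges overlapped from each to the next. Cp (118) and Tfr2 (112) followed and overlapped each other, and Steap4 (70.0), Slc40a1 (35.6), Hfe2 (25.1), Tfrc (11.8) and Lcn2 (2.38) came after, each apart from the next. After IL-1β the top of the TruSeq order was Steap4 (1881), Hamp (1839) and Lcn2 (1735), whose ranges overlapped, and Fth1 (1194) and Trf (858) came below them without overlap. Lcn2 had moved from the last place into this top group. The lower end was then Cp (232), Tfr2 (106), Slc40a1 (8.23), Tfrc (3.84) and Hfe2 (2.18), each apart from the next.

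The other kits gave a like order with some exceptions. Pico put Hamp (1161 CPM per kb) above Fth1 (981) in saline with overlapping ranges, and after IL-1β Hamp (1992), Steap4 (1669) and Lcn2 (1101) led, with Lcn2 and Fth1 (988) overlapping. V4 put Fth1 first in both groups (3164 in saline and 3769 after IL-1β), and Tfrc last (1.69 and 0.957). In saline the ranges of Lcn2 (2.48) and Tfrc overlapped in V4, whereas Tfrc (10.8) lay above Lcn2 (2.04) without overlap in Pico. Hamp after IL-1β was in the top 2 of all 3 kits.

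**Figure D4:**
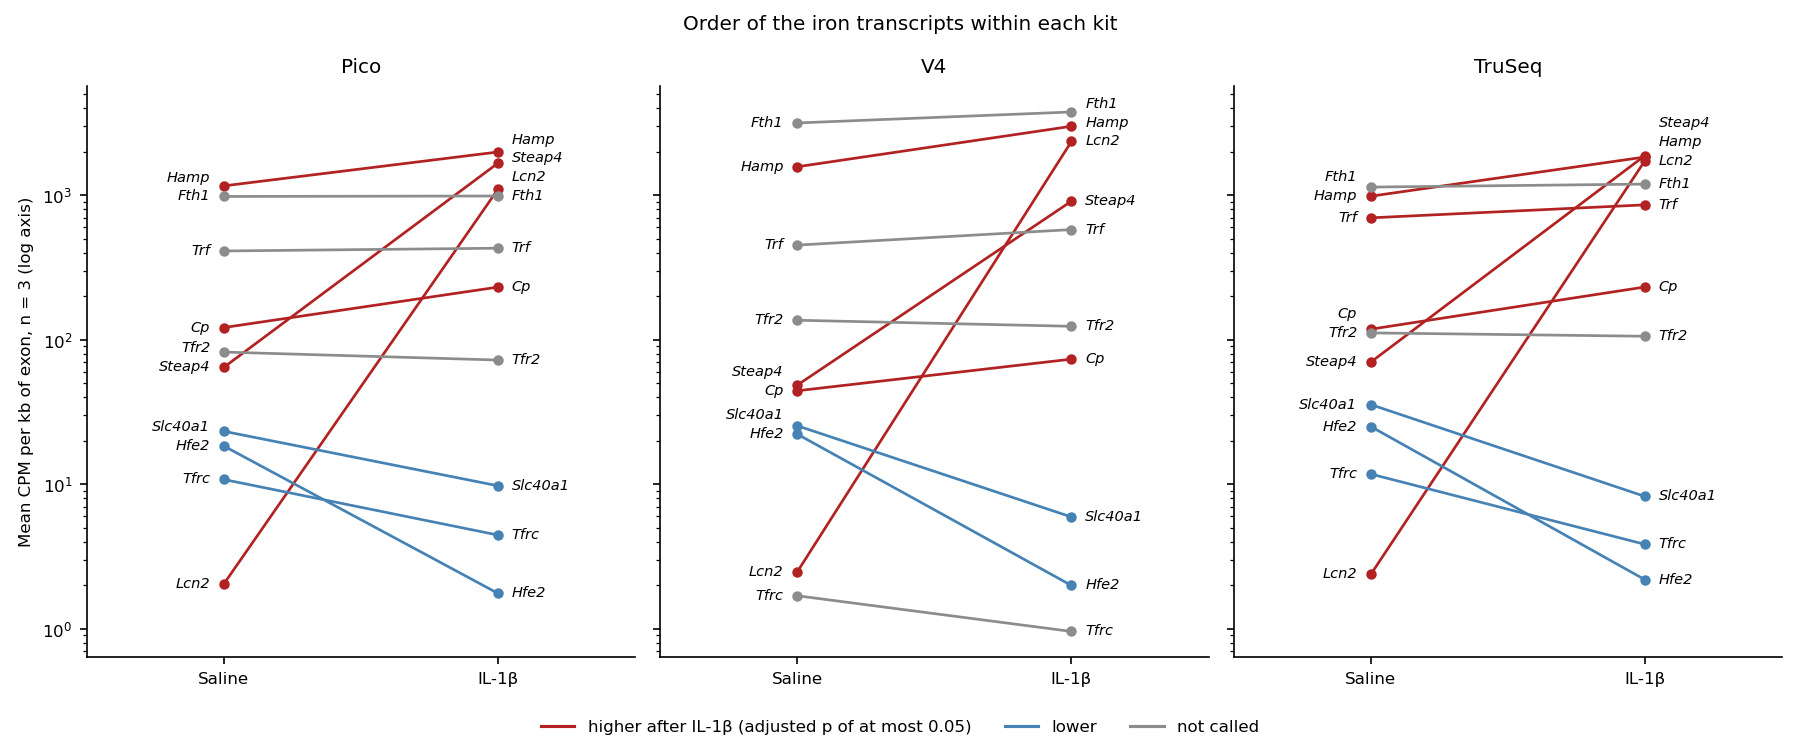
Mean level of each member in CPM per kb of exon (log axis, n = 3 per group) in saline and IL-1β livers, by kit, coloured by the call. Lcn2 climbs from 2.38 to 1735 in TruSeq and crosses 6 or more members in each kit, whereas Hfe2, Slc40a1 and Tfrc slope down.

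Treated mice ranked alike in all 3 kits for 3 of 10 members and saline mice for 1, which was Hamp. For Lcn2 the treated mice ranked I9583, I9582 and I9579 from high to low in all 3 kits, with a ratio of highest to lowest CPM of 1.24 (Pico), 1.25 (V4) and 1.23 (TruSeq). For Cp the ranking was the reverse in all 3 kits, with ratios of 1.25, 1.21 and 1.37, and Trf gave the same ranking as Cp. The saline mouse with the most Steap4, U9574, had the least Hamp. For Hamp the highest saline CPM was 1.92-fold (Pico), 2.23-fold (V4) and 1.77-fold (TruSeq) the lowest. The IL-1β mean was 1.72-fold, 1.91-fold and 1.87-fold the saline mean. A ratio of extremes and a ratio of means are unlike measures, and every treated library was above every saline library of its kit.

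Of the genes most like Lcn2 across the 18 libraries from 6 mice (Pearson's r of log2(CPM + 1) centred within each kit, 8960 genes searched), Saa3 (0.998), Orm2 (0.997) and Saa2 (0.997) came first. All 3 encode acute-phase proteins, and 436 genes had an r of at least 0.9 with Lcn2. The genes most like Hamp were Sds (0.969), Rpl7l1 (0.958) and Dusp1 (0.956), and 23 genes reached 0.9. The libraries share mice and treatment, and these values are descriptions.

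Beyond the members, 44 of 46 listed genes of iron handling were measured (Hephl1 and Ftmt were not listed). In Pico 14 of them were called (7 higher and 7 lower, 31.8% of 44), in V4 8 (7 higher and 1 lower, 18.2%) and in TruSeq 23 (11 higher and 12 lower, 52.3%), beside the 17.6%, 11.0% and 34.1% of all genes. Those shares include genes with few counts, whereas only 6, 5 and 3 of the 44 had a mean under 10. With at least 10 counts in 3 libraries, 1299 genes were called higher and 2138 lower of 11318 in Pico. The numbers were 696 and 1422 of 11821 in V4 and 2363 and 4197 of 12755 in TruSeq. These are larger shares, so neither this list nor those below can be called enriched from the shares of all genes. The median log2 fold change of the 44 was -0.12, -0.12 and -0.10, and that of all genes -0.12, -0.22 and -0.17. Stat3, Smad1, Slc11a2, Slc39a14 and Ltf were higher in all 3 kits, Cebpa was lower in all 3, and 19 were called in no kit.

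Among the 16 genes of hepcidin control, 5 were called in Pico, 4 in V4 and 8 in TruSeq. These are 31.2%, 25.0% and 50.0% of the list, beside 17.6%, 11.0% and 34.1% of all genes. Stat3, the transcription factor downstream of interleukin-6, had 6975, 6937 and 5871 counts after IL-1β and 2688, 1603 and 2208 after saline in TruSeq. The groups were far apart, and its log2 fold change was 1.69, 1.81 and 1.68 in Pico, V4 and TruSeq (limma-voom adjusted p = 5.86e-07, 0.000206 and 8.40e-05). Smad1, which carries BMP signals to the nucleus, rose by 1.06, 1.15 and 1.10 on the same scale (adjusted p = 0.000979, 0.00536 and 0.000564). From the same list, Bmpr1a, Acvr1, Smad4, Id1, Smad6, Smad7 and Atoh8 were called in no kit, and Bmp6 was called lower in TruSeq only. Cebpa, a hepatocyte transcription factor that binds the hepcidin promoter, had 1291, 1414 and 1532 counts after IL-1β and 2722, 3498 and 3594 after saline in TruSeq. Its log2 fold change was -1.15, -0.94 and -1.16 (adjusted p = 9.25e-06, 0.0478 and 0.000112), and the V4 call was lost with TMM scaling (-0.78, adjusted p = 0.0841) and without I9579, I9582, I9583, U9575 or U9576 (adjusted p = 0.0616 to 0.149, against 0.0046 to 0.149 over 12 alternatives). Neo1, which encodes neogenin, a partner of hemojuvelin, fell in Pico (-1.03, adjusted p = 0.0278) and TruSeq (-0.87, adjusted p = 0.000295) and had -0.79 in V4 (adjusted p = 0.575). The Pico call of Neo1 was lost without any of I9579, I9582, I9583, U9574 or U9575 and in the single fit of all 18 libraries (adjusted p = 0.0958 to 0.159, against 0.0054 to 0.159 over 12 alternatives).

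**Figure D5:**
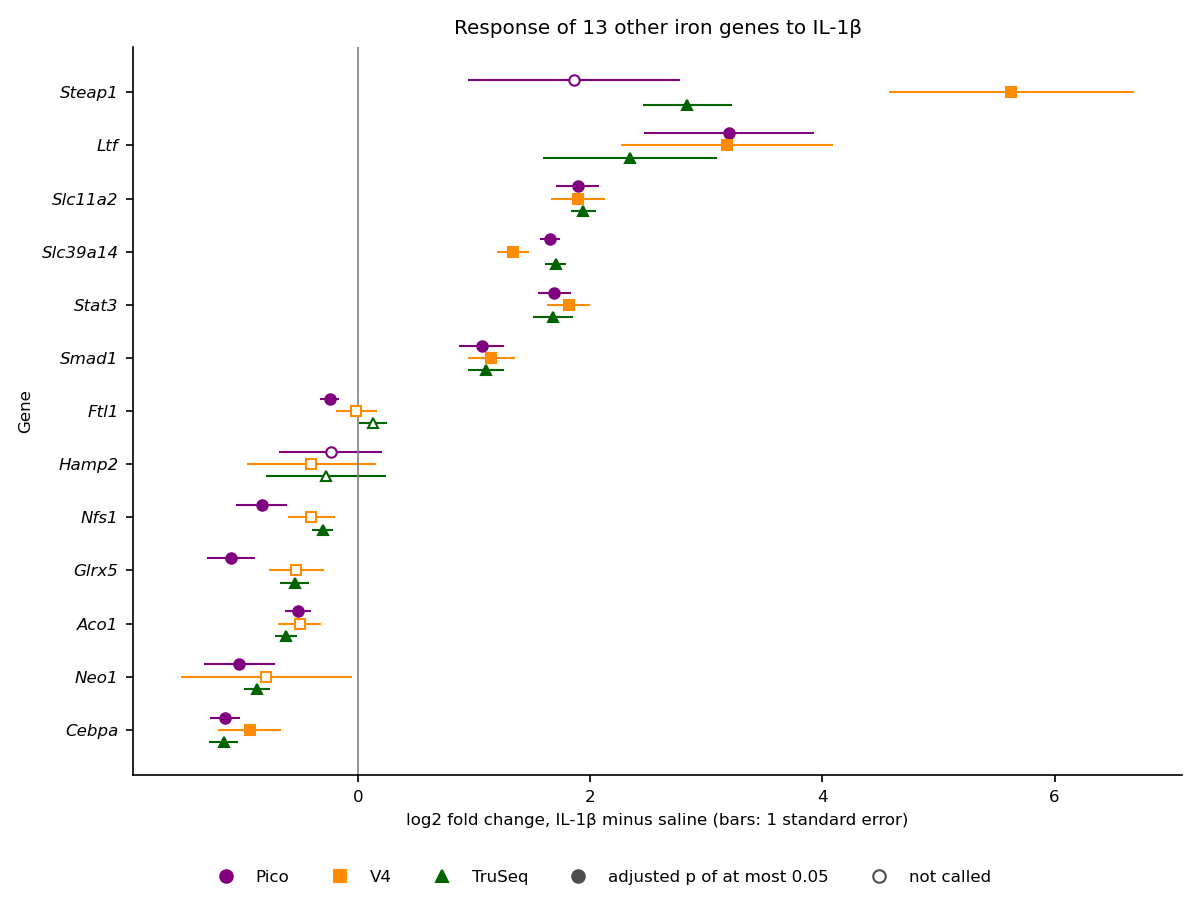
Response of 13 other iron genes as log2 fold change of IL-1β over saline, with 1 standard error, by kit; filled symbols mark an adjusted p of at most 0.05. Slc11a2, Slc39a14, Stat3 and Smad1 lie between 1.06 and 1.94 in all 3 kits, and Cebpa lies at -0.94 or below.

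Of the 12 genes of iron uptake and reduction, 4 were called in Pico, 4 in V4 and 7 in TruSeq. These are 33.3%, 33.3% and 58.3% of the list, beside 17.6%, 11.0% and 34.1% of all genes. Slc11a2, which encodes the divalent metal transporter DMT1, had 2398, 2406 and 2110 counts after IL-1β and 673, 600 and 583 after saline in TruSeq. Its log2 fold change was 1.89, 1.89 and 1.94 (limma-voom adjusted p = 2.87e-06, 0.000713 and 2.96e-06). Slc39a14, which encodes ZIP14, the hepatocyte importer of iron not bound to transferrin, had 15799, 16246 and 15661 counts against 5244, 4615 and 5294 in TruSeq. It rose by 1.65, 1.34 and 1.70 (adjusted p = 1.58e-09, 0.000208 and 2.44e-06). Both transporters thus rose in each kit while Tfrc fell or was not called.

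Steap1, a relative of Steap4, was at low counts, with 28, 25 and 39 after IL-1β and 5, 4 and 3 after saline in TruSeq (log2 fold change 2.83, SE 0.38, adjusted p = 0.000458, limma-voom). The V4 counts were 59, 55 and 132 against 14, 0 and 0, where it was called higher (adjusted p = 0.00708), and the Pico counts 1, 7 and 7 against 2, 0 and 1, where it was not called (1.86, adjusted p = 0.194). The TruSeq call was lost in the single fit of all 18 libraries (adjusted p = 0.0591), and the V4 call with DESeq2 (0.125) and without U9575 or U9576 (0.0765 and 0.0673). Ltf, which encodes the iron-binding protein lactoferrin, had 4, 4 and 4 counts after IL-1β and 0 in each saline library in Pico, 2, 14 and 7 against 0, 0 and 1 in V4, and 3, 8 and 2 against 0, 0 and 2 in TruSeq. These counts are too few for a fold change to be read, and the call of Ltf was kept under 9, 4 and 5 of 11 alternatives. Lactoferrin is a neutrophil granule protein, and the neutrophil markers given beside Lcn2 moved with it.

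Of 8 genes of storage, chaperones and sensing, 3, 0 and 2 were called in Pico, V4 and TruSeq. At 37.5%, 0.0% and 25.0%, the list was above the share of all genes only in Pico (17.6%, against 11.0% in V4 and 34.1% in TruSeq). Aco1, which encodes the iron regulatory protein IRP1 that binds the hairpins shown above, had 2622, 2449 and 2212 counts after IL-1β and 3719, 3829 and 3972 after saline in TruSeq, without overlap. Its log2 fold change was -0.52 in Pico (adjusted p = 0.00348), -0.62 in TruSeq (adjusted p = 0.000774) and -0.51 in V4 (adjusted p = 0.109, limma-voom), where it was not called but was in the single fit of all 18 libraries (adjusted p = 0.00661). Ireb2, which encodes the other iron regulatory protein, went the other way in Pico, where it was called higher (0.50, adjusted p = 0.0180, limma-voom). It had 0.41 in V4 (adjusted p = 0.504) and was called in neither V4 nor TruSeq. Ftl1, the ferritin light chain gene, was called lower in Pico only (-0.25, SE 0.08, adjusted p = 0.0468), a call that no alternative kept, and had -0.02 in V4 (adjusted p = 0.968) and 0.13 in TruSeq (adjusted p = 0.480).

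Of 7 mitochondrial iron genes, 2, 0 and 5 were called in Pico, V4 and TruSeq. These are 28.6%, 0.0% and 71.4% of the list, beside 17.6%, 11.0% and 34.1% of all genes. Glrx5 and Nfs1, both of which serve the assembly of iron-sulfur clusters, fell in Pico (log2 fold changes -1.10 and -0.83, adjusted p = 0.00139 and 0.0137) and TruSeq (-0.55 and -0.31, adjusted p = 0.00825 and 0.0260) by limma-voom. In V4 they had -0.53 (adjusted p = 0.188) and -0.40 (adjusted p = 0.253), and without U9576 the V4 value of Nfs1 was -0.61 (adjusted p = 0.0294), which would be called. In a single fit of all 18 libraries Glrx5 lost its calls in Pico (adjusted p = 0.119) and TruSeq (adjusted p = 0.167) and was called in V4 (adjusted p = 0.0397). That V4 call includes U9576, which had 4528 Glrx5 counts against 2257 and 2538 in the other saline libraries. Leaving out a mouse gave -0.72 to -0.24 for Glrx5 in V4. The Nfs1 call was lost without I9582, I9583, U9574 or U9575 in Pico (adjusted p = 0.0652 to 0.121, against 0.0028 to 0.121 over 12 alternatives) and in the single fit without the mouse as a block (0.0511). In TruSeq 3 of 12 alternatives kept it. It was lost there without I9579, I9582, U9574 or U9575 (adjusted p = 0.0502 to 0.0682) and in the single fit (0.21), and the value was -0.15 with TMM scaling in limma-voom, with edgeR and with DESeq2 (adjusted p = 0.258, 0.281 and 0.346). The remaining ferroxidase measured, Heph, was called lower in TruSeq only.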

How the data were processed

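RNA-Seq of mouse liver was measured in 18 libraries, 3 IL-1β and 3 saline mice in each of 3 kits. Per the labels and the study's methods, the authors aligned reads with GSNAP to mm9, removed ribosomal reads, resampled reads to equal depth within a kit with PORT and counted reads per gene on the sense strand (Pico, TruSeq) or on both strands (V4). The deposited values are whole-number counts, and each table was normalized separately. Which of the authors' Pico preparations was deposited is not given in the sources used here.

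Each kit was fitted with limma-voom (limma 3.58.1, R 4.3.3) scaled by library totals, keeping each gene that had a count in some library, with Benjamini-Hochberg adjustment over all genes and a call at an adjusted p of at most 0.05. Differences in response were fitted on the 12 libraries of a pair of kits. Alternatives were edgeR's quasi-likelihood test (4.0.16) with TMM factors, DESeq2 (1.42.0), TMM in limma-voom, a minimum of 10 counts in 3 libraries, an adjusted p of at most 0.01, leaving out each mouse, and 1 fit of all libraries with and without the mouse as block. The scripts were tested on simulated data. All 10 members are named. Of the other iron genes, those called in at least 2 kits the same way were eligible. The 4 with the largest mean size of change per list are named, and Hamp2 and Ftl1. Ireb2, and the hepcidin control genes listed beside Smad1, were added after their values were seen. The members, lists, markers and tests were chosen with earlier results of these data known. An item of the erythroid marker list is not reported here.

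The same RNA entered each kit, so the mouse pairs libraries between kits, and no mouse is shared between treatments. The deviations of the same mouse correlated between kits, with r of 0.194 to 0.446 for Pico and TruSeq, 0.168 to 0.458 for V4 and TruSeq and 0.0796 to 0.234 for Pico and V4. Promoter windows are from RefSeq (GRCm38.p6), and all other coordinates are of mm9. Across all genes the median log2 fold change was -0.12 (Pico), -0.22 (V4) and -0.17 (TruSeq), and with TMM factors 0.016, -0.056 and -0.015. Of the calls, 38.6%, 32.7% and 36.0% were higher, and with TMM factors 52.9%, 49.7% and 50.9%.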

Additional observations from a re-analysis of the deposited data

How the results depend on the processing

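The number of members called stayed within 1.5 times under every alternative, and leaving out a mouse gave 6 to 7 (Pico), 4 to 8 (V4) and 7 to 8 (TruSeq). Members called lower kept their calls in all 96 fits, those called higher in 140 of 156, and the exceptions were Hamp, Cp and Trf as given above. With the mouse as a replicate block in 1 fit of all libraries, Hamp in Pico (adjusted p = 0.0852) and Trf in TruSeq (0.315) lost their calls, as they did without the block (0.108 and 0.317); the block changed no other call of a member. For the other iron genes, that fit called 8 in Pico without and 9 with the replicate block, and 15 in V4 either way. At an adjusted p of at most 0.01, 5 were called in V4 and 15 in TruSeq, and leaving out a mouse gave 4 to 9 in V4, with 5 without I9583 and 4 without U9575. The values that changed sign belonged to genes not called in that kit. Tfr2 was 0.026, 0.031 and 0.036 in V4 and 0.079, 0.081 and 0.081 in TruSeq, and Ftl1 0.15, 0.12 and 0.12 in V4, with TMM, edgeR and DESeq2. Leaving out a mouse gave log2 fold changes of -0.053 to 0.067 for Fth1 and -0.017 to 0.12 for Trf in Pico, -1.25 to 0.064 for Neo1 and -0.19 to 0.21 for Ftl1 in V4, and for Hamp2 -0.70 to 0.21 (Pico), -1.13 to 0.029 (V4) and -0.99 to 0.073 (TruSeq). The cause was not tested. With 3 mice per group, small differences could not be told from none, and V4 and Pico called fewer genes than TruSeq.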

Other observations

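Genes named here were chosen after their values were seen. Tmprss6 encodes matriptase-2, a liver protease that cleaves hemojuvelin and so restrains hepcidin, and it fell in Pico (log2 fold change -0.56, SE 0.11, adjusted p = 0.00165) and TruSeq (-0.46, SE 0.09, adjusted p = 0.00424), with -0.68 in V4 (SE 0.21, adjusted p = 0.0617, limma-voom). It had 3243, 3629 and 3406 counts after IL-1β and 4734, 4564 and 5237 after saline in TruSeq, without overlap. Il6ra, the receptor chain that binds interleukin-6, rose in V4 (0.71, adjusted p = 0.0321) and TruSeq (0.67, adjusted p = 0.0173) and had 0.32 in Pico (adjusted p = 0.279). Scara5, which encodes a receptor for ferritin, rose in Pico (1.68, adjusted p = 7.83e-05) and TruSeq (1.59, adjusted p = 0.00266), with 1.39 in V4 (adjusted p = 0.0643). As for Steap4, the saline mouse with the most Scara5 in each kit was U9574.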
